A study of Homo sapiens with 8 samples.

Results

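The interferon regulatory factors (IRFs) are a family of transcription factors, and 7 of them, IRF1, IRF2, IRF3, IRF4, IRF5, IRF7 and IRF8, are described here in 4 ovarian cancer cell lines given pI:pC or left untreated. IRF9 was not a member and appears below with the interferon receptor genes. Members were taken by name: every probe set whose only gene symbol in the platform annotation is one of the 7 was used. This gave 10 probe sets for 7 genes, out of 22215 probe sets that are not array controls and 11963 genes with a probe set of their own. IRF4 has 3 probe sets (204562_at, 216986_s_at and 216987_at) and IRF5 has 2 (205469_s_at and 205468_s_at). The others have 1 each, namely 202531_at for IRF1, 203275_at for IRF2, 202621_at for IRF3, 208436_s_at for IRF7 and 204057_at for IRF8.

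The groups were CAOV-3, OVCAR-3, SKOV-3 and DOV-13 cells with pI:pC added to the culture medium, and the same 4 lines untreated, with 1 array per line and condition, 8 arrays in all. All are established human ovarian cancer lines, grown in a serum-containing medium with antibiotic. The agent, polyriboinosinic:polyribocytidylic acid, is a man-made double strand of RNA that stands in for viral RNA. Several concentrations were used, and the labels give neither dose nor exposure time for an array, nor whether an array held RNA of 1 culture. The design asks how treated cells differ from untreated ones, and for the IRF genes the question is whether their own transcripts differ.

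IRF proteins share an N-terminal DNA-binding domain marked by conserved tryptophans and bind repeats of GAAA, as found in interferon-stimulated response elements. Double-stranded RNA sensors activate the kinases TBK1 and IKBKE, which phosphorylate IRF3 and IRF7, and these then switch on interferon genes. IRF3 is present in most cells and is controlled mainly through its phosphorylation, whereas IRF7 is itself an interferon-induced gene and amplifies the interferon alpha response. IRF1 is induced by interferons and by NF-kB, IRF2 competes with IRF1 for the same sites, and IRF5 works downstream of Toll-like receptors. IRF4 and IRF8 are known chiefly from lymphoid and myeloid cells.

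The control sequences of these genes bear on which signals they answer to, so the stretches that hold a known element are shown first. RefSeq promoter windows (GRCh38.p14, 250 bases before to 50 after a start site) were matched for 4 of the 7 members, IRF1, IRF4, IRF5 and IRF8, with 8 windows between them. They were searched on both strands for the interferon-responsive GAS element (TTCNNNGAA), the IRF element (GAAANNGAAA) and a form with 1 base between its repeats (GAAANGAAA), which can overlap a GAAANNGAAA match. Of all 35116 windows, 7.66% hold the first, 3.57% the second and 3.12% the third. Among the members the GAS element was found before IRF1, and the repeat with 1 base between before IRF5 and IRF8. IRF1 is on the minus strand at chr5:132490865-132490921, and its match begins 124 bases before the start site. IRF5 is on the plus strand at chr7:128940613-128940669, with the match 33 bases before one of its start sites, and IRF8 on the plus strand at chr16:85902689-85902745, with the match 117 bases before one of its start sites. Capitals mark the match.
IRF1: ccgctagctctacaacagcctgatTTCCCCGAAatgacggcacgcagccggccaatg
IRF5: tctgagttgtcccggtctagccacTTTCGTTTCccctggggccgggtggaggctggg
IRF8: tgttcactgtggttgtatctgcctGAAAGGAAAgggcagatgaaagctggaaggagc

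Values are RMA log2 levels. The median array value lay between 6.19 and 6.30, and the pair of arrays of a line correlated at 0.992 to 0.997, against 0.897 to 0.947 between lines. The labelled cell type was checked on 17 epithelial and ovarian carcinoma markers, of which 15 or 16 were at or above the array median in CAOV-3 and OVCAR-3, and 8 to 12 in DOV-13 and SKOV-3. The keratin gene KRT18 was at 11.52 or more and the lineage factor PAX8 at 8.06 or more on all arrays, while EPCAM lay at 5.94 in treated and 5.42 in untreated DOV-13, below the median. The cadherin gene CDH1 was at 3.96 or less in SKOV-3 and DOV-13. WT1 and MUC16 were at or above the median only on the 2 OVCAR-3 arrays. Of 18 lymphoid and myeloid markers, 2 were at or above the median on each array except untreated CAOV-3, where 3 were. SDC1, which epithelial cells also express, and CD4 were the genes above it on all arrays, and the third was CD14. The list's mean level was 5.19 to 5.27 in treated and 5.19 to 5.25 in untreated arrays. The pan-leukocyte gene PTPRC stayed between 4.12 and 4.41. No marker passed limma's test of treatment, and the largest mean changes were those of CD14 (-0.33), the B cell gene MS4A1 (-0.16), the T cell gene CD2 (0.14) and SDC1 (0.10) in this list, and of the mucin genes MUC16 (0.24) and MUC1 (0.17), EPCAM (0.16) and the tight junction gene CLDN4 (0.15) in the epithelial one.

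By their levels the members formed 3 classes. IRF1, IRF3 and IRF7 were at or above the median of every one of the 8 arrays. IRF2, IRF5 (205469_s_at) and IRF8 were above it on 5, 6 and 2 arrays. The 3 IRF4 probe sets and the second IRF5 probe set (205468_s_at) were below it on all 8. RMA compresses differences among dim probe sets, so a small value for the last 4 does not show that the gene did not differ. Levels of different probe sets were not set against each other, since each has its own affinity.

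**Figure D1:**
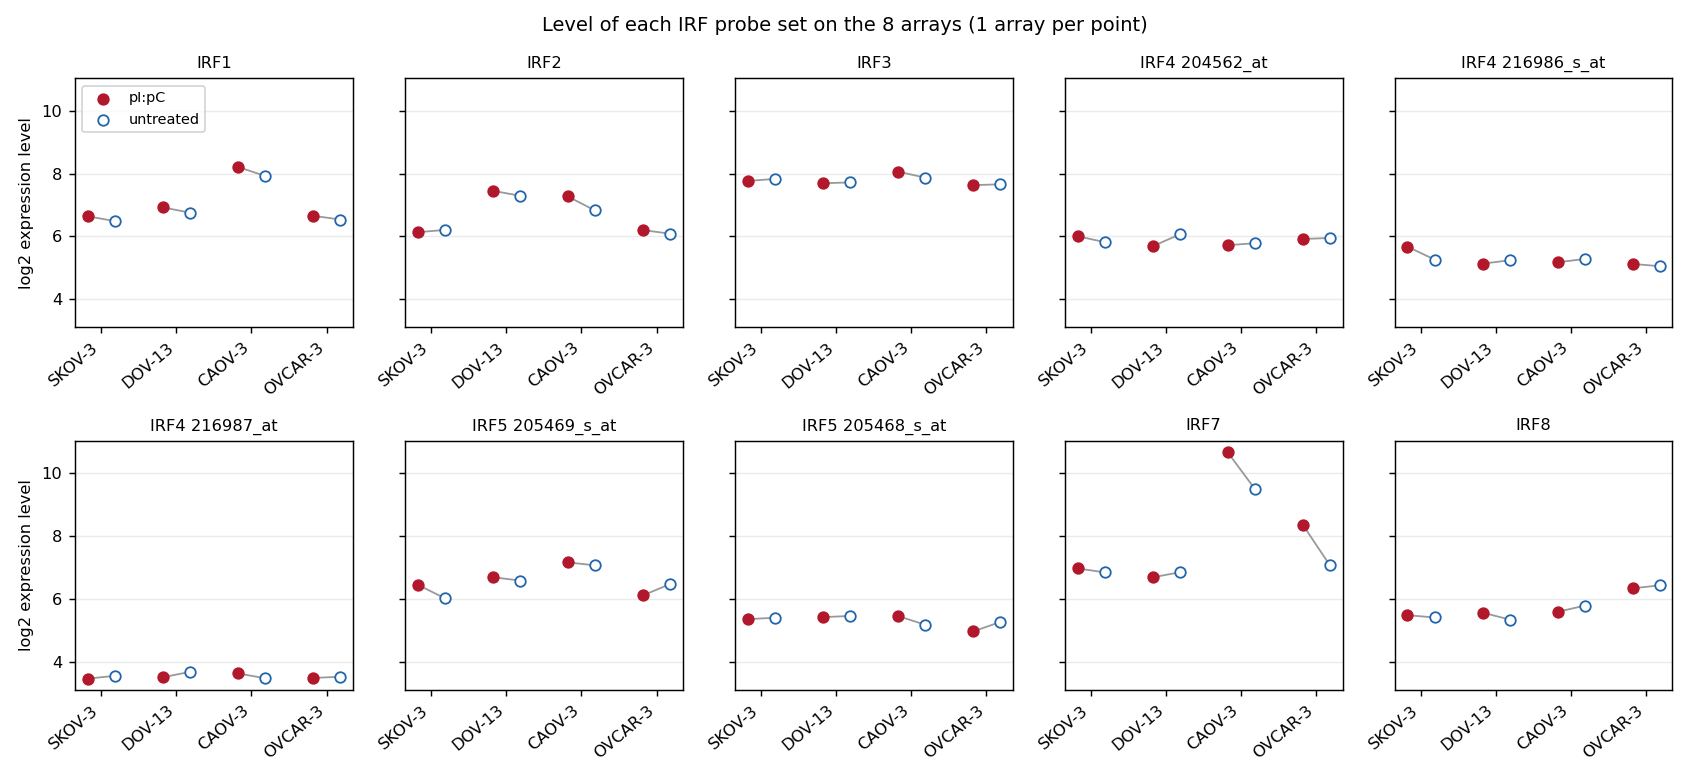
Log2 expression level (y axis) of the 10 IRF probe sets, 1 panel each, in the 4 cell lines (x axis). Each point is 1 array, filled for pI:pC and open for untreated, joined within a line. IRF7 spans 6.70 to 10.66 over the arrays, with CAOV-3 highest in both conditions, while IRF3 keeps between 7.63 and 8.06.

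IRF7, the interferon-induced factor of the interferon alpha response, showed the largest differences of the 7 members, in CAOV-3 and OVCAR-3. In CAOV-3 it was at 10.66 with pI:pC and 9.51 without, a difference of 1.16, or 2.23-fold. In OVCAR-3 it was at 8.36 with pI:pC and 7.08 without, a difference of 1.29, or 2.44-fold. SKOV-3 had 6.98 with pI:pC and 6.85 without, and DOV-13 had 6.70 with pI:pC and 6.85 without, differences of 0.12 and -0.16. IRF7 was thus higher with pI:pC in 3 of 4 lines, and the sets of 4 treated and 4 untreated values overlapped, as untreated CAOV-3 exceeded every treated array of the other lines. These are bulk RNA values, in which more cells expressing a gene and more RNA per cell cannot be told apart.

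Without a replicate in any line no within-line test exists, so each difference was placed among all probe sets of its array pair. A probe set was counted in a line when its arrays differed by at least 1 in either direction and the higher value reached the array median. Of the 10 IRF probe sets 1 was counted in CAOV-3 and 1 in OVCAR-3, IRF7 both times, beside 0.86% of all probe sets in CAOV-3 and 0.153% in OVCAR-3. None was counted in SKOV-3 or DOV-13, where 0.018% and 0.027% of all were. In OVCAR-3 the IRF7 difference was among the highest 29 of 22215, and in CAOV-3 among the highest 142. In SKOV-3, 23.4% of all probe sets had a difference as high, and in DOV-13 91.3%.

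Averaged over the lines, IRF7 was at 8.18 ± 1.81 with pI:pC and 7.57 ± 1.30 without (SD, n = 4 lines each). The mean change was 0.60 ± 0.73, so its spread between lines exceeded its size. It did not pass in limma with lines as blocks (unadjusted p = 0.0354, adjusted p = 0.996). Over all probe sets 0 passed that test, 0% of those tested, with 0.996 as the lowest adjusted value. An unadjusted p under 0.05 was found for 855 probe sets, 3.85% of all, among them 2 of the 10 IRF probe sets, IRF7 and IRF1. An exact sign-flip permutation over the 4 lines (two-sided) gave p = 0.375 for IRF7, and 4 pairs cannot give less than 0.125. Without OVCAR-3 the mean change was 0.37, without CAOV-3 0.42, and without DOV-13 0.86.

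IRF1 was the sole member higher with pI:pC in all 4 lines, and by little. It was at 6.64 with pI:pC and 6.49 without in SKOV-3, and at 6.92 with pI:pC and 6.76 without in DOV-13. In CAOV-3 the values were 8.21 with pI:pC and 7.92 without, and in OVCAR-3 6.66 with pI:pC and 6.54 without. The differences of 0.15, 0.17, 0.29 and 0.12 have the smallest spread of the 10 probe sets, with a mean of 0.18 ± 0.07 (SD, n = 4 lines), or 1.13-fold. Of all probe sets 6.74% were higher in every line. IRF1 did not pass (limma, adjusted p = 0.996), although its unadjusted p of 0.0205 was the smallest of the 10. The exact sign-flip permutation gave 0.125, the smallest value that 4 pairs can give.

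The single differences of IRF1 were ordinary for their array pairs. A difference at least as high was seen for 18.8% of all probe sets in SKOV-3, 17.9% in DOV-13, 7.44% in CAOV-3 and 18.4% in OVCAR-3. In CAOV-3 and OVCAR-3, where IRF7 differed by more than 1, IRF1 differed by 0.29 and 0.12.

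IRF2, the competitor of IRF1, was higher with pI:pC in 3 lines. Its CAOV-3 arrays had 7.27 with pI:pC and 6.83 without, a difference of 0.45 that 3.33% of all probe sets in that line reached. In DOV-13 it was at 7.45 with pI:pC and 7.30 without, in OVCAR-3 at 6.20 with pI:pC and 6.09 without, and in SKOV-3 at 6.13 with pI:pC and 6.21 without. The mean change of 0.16 ± 0.21 (SD, n = 4 lines) did not pass limma's test (adjusted p = 0.996), and without CAOV-3 it was 0.07.

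IRF3, the constitutive target of the sensing kinases, showed small differences between conditions. It was at 7.76 with pI:pC and 7.83 without in SKOV-3, 7.69 with pI:pC and 7.72 without in DOV-13, 8.06 with pI:pC and 7.87 without in CAOV-3, and 7.63 with pI:pC and 7.66 without in OVCAR-3. It was lower in 3 lines by 0.07 at most and higher in CAOV-3 by 0.19. The mean change was 0.02 ± 0.12 (SD, n = 4 lines; limma, adjusted p = 0.996), and it was -0.04 without CAOV-3. A transcript level says nothing about phosphorylation, which was not measured.

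IRF5, the factor downstream of Toll-like receptors, differed in opposite directions between lines. Probe set 205469_s_at was at 6.46 with pI:pC and 6.03 without in SKOV-3, a difference of 0.43 whose size 2.83% of all probe sets in that line reached or passed. In OVCAR-3 it was at 6.12 with pI:pC and 6.48 without, a difference of -0.36 whose size 4.22% of all probe sets in that line reached or passed. DOV-13 had 6.70 with pI:pC and 6.59 without, and CAOV-3 had 7.17 with pI:pC and 7.08 without. The other probe set, 205468_s_at, was at 5.37 with pI:pC and 5.41 without in SKOV-3, 5.43 with pI:pC and 5.47 without in DOV-13, 5.47 with pI:pC and 5.19 without in CAOV-3, and 4.97 with pI:pC and 5.27 without in OVCAR-3. Both probe sets were thus lower with pI:pC in OVCAR-3, and only 205469_s_at was higher in SKOV-3. They had the same sign in 2 of 4 lines, and their mean changes were 0.07 ± 0.32 and -0.03 ± 0.23 (SD, n = 4 lines; limma, adjusted p = 0.996 for each). Without SKOV-3 the mean of 205469_s_at was -0.05, and without OVCAR-3 it was 0.21.

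IRF4, the lymphoid factor, was dim on all 3 probe sets, and these differed in sign. Probe set 204562_at was at 6.01 with pI:pC and 5.82 without in SKOV-3, 5.69 with pI:pC and 6.07 without in DOV-13, 5.72 with pI:pC and 5.78 without in CAOV-3, and 5.92 with pI:pC and 5.95 without in OVCAR-3. In SKOV-3 216986_s_at stood out, at 5.68 with pI:pC and 5.27 without, a difference of 0.41 that 1.19% of all probe sets in that line reached, while its other differences lay between -0.11 and 0.07. Probe set 216987_at stayed between 3.47 and 3.69, near the array minimum. The mean changes were -0.07, 0.07 and -0.04, and any 2 of the probe sets had the same sign in 1 to 3 of the 4 lines.

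IRF8, the myeloid factor, was at 5.49 with pI:pC and 5.42 without in SKOV-3, 5.57 with pI:pC and 5.35 without in DOV-13, 5.60 with pI:pC and 5.80 without in CAOV-3, and 6.35 with pI:pC and 6.44 without in OVCAR-3. It was higher with pI:pC in 2 lines and lower in 2. The mean change was -0.001 ± 0.18 (SD, n = 4 lines; limma, adjusted p = 0.9999).

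**Figure D2:**
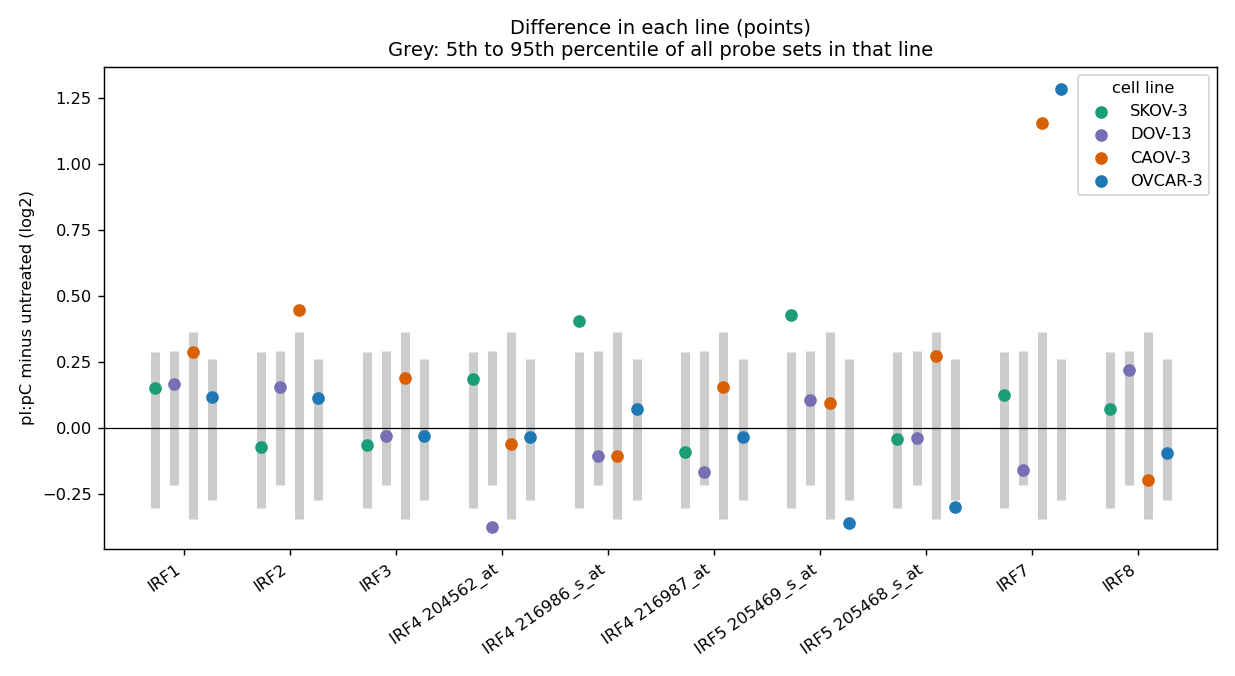
Treated minus untreated log2 difference (y axis) of each IRF probe set (x axis) in each cell line, 1 coloured point per array pair. Grey bars run from the 5th to the 95th percentile of the differences of all probe sets in that line. IRF7 in CAOV-3 (1.16) and OVCAR-3 (1.29) lies far above its bar, while the 4 points of IRF1 lie inside theirs.

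Taken over the 10 probe sets, 6 had a positive mean change, beside 53.3% of all probe sets, and their median was 0.041, beside 0.0065 for all. By line, 6 of the 10 were higher with pI:pC in SKOV-3, 4 in DOV-13, 7 in CAOV-3 and 4 in OVCAR-3, with medians of 0.098, -0.033, 0.171 and -0.032. The share of all probe sets that was higher was 53.1%, 60.8%, 46.8% and 47.4% in the same order of lines. IRF7 stood apart from the other members, whose differences did not reach 1 in any line.

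IRF levels did differ between the lines themselves. In limma's F test over the 4 lines, with treatment in the model, 5 of the 10 probe sets passed, those of IRF1, IRF2, IRF7, IRF8 and 205469_s_at of IRF5, while 65.5% of all probe sets passed. The share of IRF probe sets is thus not above the background. Each line enters with a treated and an untreated array, so the error of this test is the spread of the treatment difference between lines. The F test and the comparisons of pairs of lines use line means over both conditions, not untreated levels. Pairs of lines were compared in the same fit, and 18 of the 60 combinations of probe set and pair passed. Of all probe sets 34.8% to 47.4% passed in a pair, so this count is not above the background either.

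CAOV-3 was the line with the highest IRF1 and IRF7. For IRF1 (F test, adjusted p = 7.51e-06) the untreated levels were 7.92 in CAOV-3, 6.76 in DOV-13, 6.54 in OVCAR-3 and 6.49 in SKOV-3. The pairs of lines that passed for IRF1 were SKOV-3 minus CAOV-3 at -1.5 (adjusted p = 5.83e-06), DOV-13 minus CAOV-3 at -1.23 (1.79e-05), CAOV-3 minus OVCAR-3 at 1.47 (6.72e-06) and SKOV-3 minus DOV-13 at -0.28 (0.0439), while OVCAR-3 was not separated from its neighbours DOV-13 and SKOV-3. For IRF7 (F test, adjusted p = 0.000153) the untreated level was 9.51 in CAOV-3, 7.08 in OVCAR-3 and 6.85 in both DOV-13 and SKOV-3. The 3 pairs with CAOV-3 passed. Over both conditions SKOV-3 minus CAOV-3 was -3.17 and DOV-13 minus CAOV-3 was -3.31. Untreated CAOV-3 alone lay 2.65 above untreated SKOV-3 and untreated DOV-13. No pair among the lower 3 lines passed, and without CAOV-3 the F test of IRF7 did not pass (adjusted p = 0.0636).

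CAOV-3 and OVCAR-3 had both the highest untreated IRF7 and its largest differences with pI:pC, but the gaps between lines were not alike in the 2 measures. Untreated OVCAR-3 lay 0.22 above untreated SKOV-3 and untreated DOV-13, whereas treated OVCAR-3 lay 1.39 above treated SKOV-3 and 1.67 above treated DOV-13. Untreated CAOV-3 was already 2.65 above both, at the 89.2 percentile of its array, and the treated CAOV-3 array reached the 95.5 percentile.

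IRF2 grouped the lines differently. Its untreated level was 7.30 in DOV-13, 6.83 in CAOV-3, 6.21 in SKOV-3 and 6.09 in OVCAR-3 (F test, adjusted p = 9.97e-05), and each of the first pair of lines differed from each of the second pair, by 0.88 to 1.23 in size. The pair DOV-13 and CAOV-3 did not pass, nor did SKOV-3 and OVCAR-3. IRF5 (205469_s_at) was highest in CAOV-3, with untreated levels of 7.08 in CAOV-3, 6.59 in DOV-13, 6.48 in OVCAR-3 and 6.03 in SKOV-3 (F test, adjusted p = 0.00581). CAOV-3 differed from each other line, no pair among the others passed, and without CAOV-3 the F test did not pass (adjusted p = 0.16). On the dim probe set 205468_s_at of IRF5, untreated CAOV-3 was instead the lowest, at 5.19 beside 5.27 to 5.47 in the other lines. IRF8 was highest in OVCAR-3, at 6.44 untreated, beside 5.80 in CAOV-3, 5.42 in SKOV-3 and 5.35 in DOV-13 (F test, adjusted p = 0.000435). Only the 3 pairs with OVCAR-3 passed for IRF8, and without that line the F test did not (adjusted p = 0.232).

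For IRF3 the untreated levels spanned 0.21, from 7.66 in OVCAR-3 to 7.87 in CAOV-3. Its F test did not pass (adjusted p = 0.0701), though the single pair CAOV-3 minus OVCAR-3 did, at 0.32 over both conditions (adjusted p = 0.0259). The 3 IRF4 probe sets and 205468_s_at of IRF5 passed neither the F test nor any pair. Each pair of lines separated a large share of all probe sets, namely 34.8% for SKOV-3 and DOV-13, 46.8% for SKOV-3 and CAOV-3, 47.1% for SKOV-3 and OVCAR-3, 46.4% for DOV-13 and CAOV-3, 46% for DOV-13 and OVCAR-3 and 47.4% for CAOV-3 and OVCAR-3.

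Upstream of the IRFs, the sensor genes IFIH1 and RIGI were higher with pI:pC in CAOV-3 and OVCAR-3, the lines where IRF7 was counted. Of 14 measured sensing and kinase genes, 10 had a positive mean change, beside 53.3% of all probe sets. None passed limma's test in either direction, and the median was 0.17 (0.065 without CAOV-3), beside 0.0065 for all probe sets. By line that median was 0.35 (CAOV-3), 0.10 (OVCAR-3), 0.04 (SKOV-3) and -0.01 (DOV-13). IFIH1 (MDA5), a cytosolic sensor of double-stranded RNA, was higher by 2.46 in CAOV-3 and 2.47 in OVCAR-3, and RIGI by 1.70 in CAOV-3 and 0.92 in OVCAR-3. In SKOV-3 IFIH1 differed by 0.38 and RIGI by -0.304, and in DOV-13 by -0.075 and 0.379. The endosomal receptor gene TLR3 was at 7.67 with pI:pC and 6.67 without in CAOV-3, and differed by 0.10 in OVCAR-3, and DHX58, a regulator of both cytosolic sensors, by 0.53 and 0.44. The IRF kinase genes had mean changes of 0.06 (TBK1) and 0.22 (IKBKE).

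Among 16 interferon receptor and JAK-STAT genes, 9 had a positive mean change, beside 53.3% of all probe sets. None passed, and the list's median was 0.027 (-0.015 without DOV-13). USP18, which dampens signalling at the interferon receptor, was higher by 1.81 in CAOV-3 and 0.98 in OVCAR-3. IRF9, the IRF that acts directly below the interferon receptors, was at 10.22 with pI:pC and 9.42 without in CAOV-3, and at 8.97 with pI:pC and 6.86 without in OVCAR-3. In SKOV-3 and DOV-13 it differed by -0.03 and -0.21. Its OVCAR-3 difference of 2.11 was larger than that of IRF7 (1.29), and its CAOV-3 difference of 0.81 was smaller (1.16 for IRF7). IFNAR1, a receptor chain for interferon alpha and beta, had a mean change of -0.18 ± 0.16 and IFNGR2 one of 0.19 ± 0.24 (SD, n = 4 lines).

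The 16 measured partners and regulators of IRF proteins had a median mean change of -0.002 (0.026 without OVCAR-3). Of them 8 were positive, beside 53.3% of all probe sets, and none passed. ETV6, a repressor known to bind IRF8, was higher in every line, by 0.17 to 0.26 (mean 0.21 ± 0.05, SD, n = 4 lines), at levels below the median on all arrays. TRIM21, which ubiquitinates IRF proteins, had 0.14 ± 0.15, BATF, a partner of IRF4 and IRF8, -0.10 ± 0.29, and the acetyltransferase gene KAT2B -0.10 ± 0.15. SPI1 (PU.1) and SPIB, the lymphoid and myeloid partners of IRF4 and IRF8, stayed between 4.22 and 5.01 on all arrays.

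Downstream, some genes known as IRF3 and IRF7 targets showed the largest single differences among the lists, in CAOV-3 and OVCAR-3, while the interferon genes showed none of that size. Of 23 measured targets 18 had a positive mean change, beside 53.3% of all probe sets, and none passed. In CAOV-3 8 were counted and in OVCAR-3 5, beside 0.86% and 0.153% of all probe sets. In each of SKOV-3 and DOV-13 0 were counted, beside 0.018% and 0.027% of all. The list's median mean change was 0.113. By line the median was 0.102 (CAOV-3), 0.034 (OVCAR-3), 0.119 (SKOV-3) and 0.065 (DOV-13), so the large differences belong to part of the list. ISG15 was at 12.51 with pI:pC and 10.20 without in CAOV-3, and at 11.21 with pI:pC and 8.01 without in OVCAR-3. IFIT1, which binds viral RNA, was at 11.79 with pI:pC and 9.27 without in CAOV-3, and at 9.40 with pI:pC and 5.19 without in OVCAR-3. The antiviral GTPase gene MX1 differed by 1.99 in CAOV-3 and 3.92 in OVCAR-3, and the chemokine gene CXCL11 by 6.13 and 0.49. In SKOV-3, 21 of the 23 targets were higher, beside 53.1% of all probe sets. There IFIT1 differed by 0.81, ISG15 by 0.57 and MX1 by 0.003. In DOV-13, 13 were higher, beside 60.8% of all, and MX1 differed by 0.44, ISG15 by 0.20 and IFIT1 by -0.009. The 95th percentile of all differences was 0.288 in SKOV-3 and 0.291 in DOV-13. As with IRF7, untreated CAOV-3 held the highest untreated level of ISG15, IFIT1 and MX1 (10.20, 9.27 and 9.31). The 11 measured interferon alpha and beta genes differed by -0.21 to 0.31 in any line, and 83 of their 88 array values lay below the array median, and 0 were counted.

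Known IRF1 targets, like those of IRF3 and IRF7, had positive medians in all 4 lines. For the IRF1 targets these were larger in CAOV-3 and OVCAR-3. Of 23 measured IRF1 targets 17 had a positive mean change, beside 53.3% of all probe sets, and none passed. In every line 6 were higher (also 6 in the IRF3 and IRF7 list), beside 6.74% of all probe sets. The median mean change of the IRF1 targets was 0.178 (0.10 without CAOV-3). By line the median was 0.30 (CAOV-3), 0.26 (OVCAR-3), 0.09 (SKOV-3) and 0.08 (DOV-13). In all, 5 were counted in CAOV-3 and 1 in OVCAR-3, beside 0.86% and 0.153% of all probe sets. The immunoproteasome gene PSMB9 was higher in each line, by 0.63 in SKOV-3, 0.23 in DOV-13, 1.21 in CAOV-3 and 0.61 in OVCAR-3. TAP1, the peptide transporter gene, differed by 1.63 in CAOV-3 and 0.87 in OVCAR-3. The protease gene CTSS stood at 6.68 with pI:pC and 5.08 without in CAOV-3, and the chemokine gene CXCL10, which is in both target lists, differed by 3.87 in CAOV-3 and 1.36 in OVCAR-3. GBP1, IRF1's interferon-induced GTPase target, had a mean change of 0.46 ± 0.31 (SD, n = 4 lines).

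**Figure D3:**
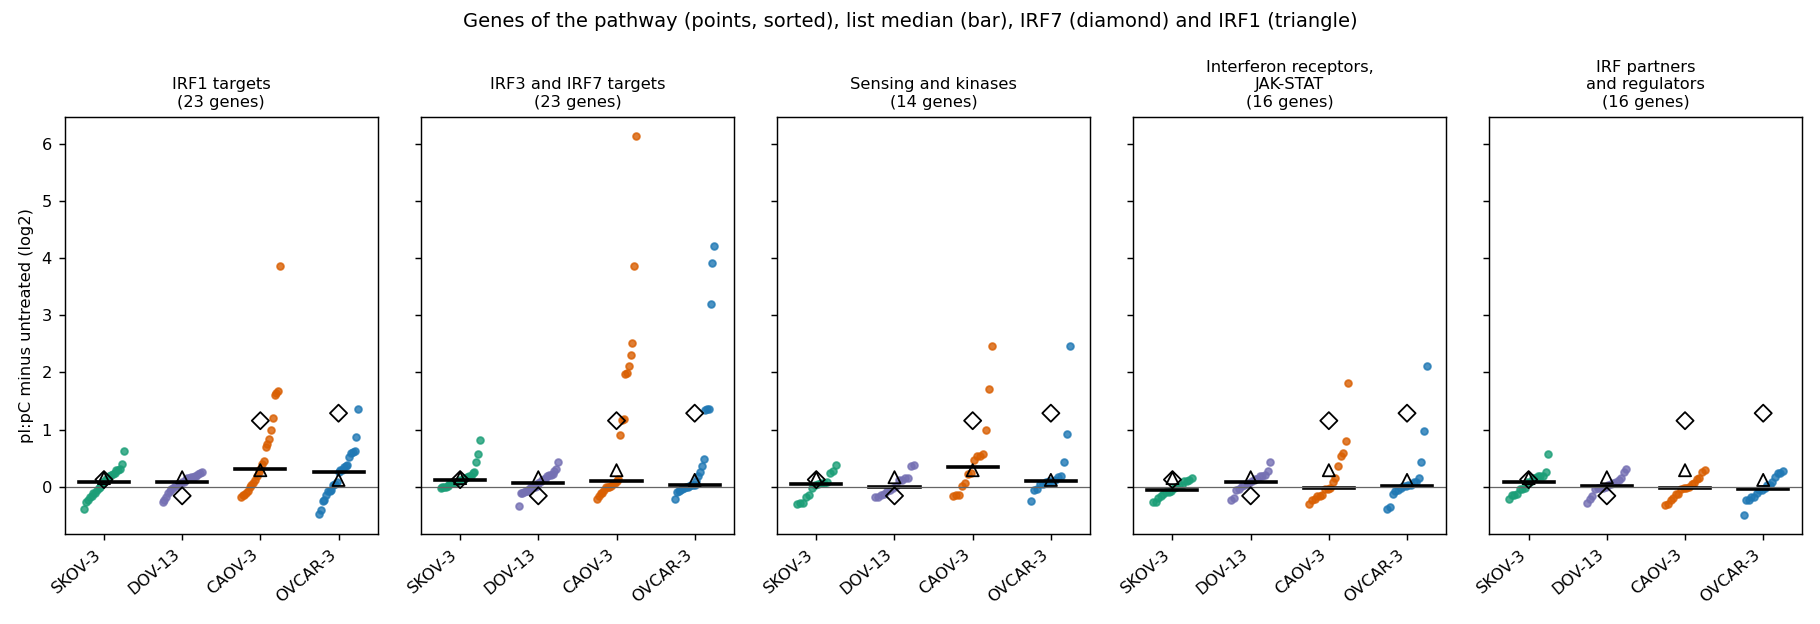
Treated minus untreated log2 difference (y axis) of the genes of 5 pathway lists, in each cell line (x axis). Each point is 1 gene, sorted by value within a line, the bar is the list median, the diamond is IRF7 and the triangle is IRF1. In CAOV-3 and OVCAR-3 the highest points are targets of IRF3 and IRF7, up to 6.13 in CAOV-3 and 4.21 in OVCAR-3, and the partners and regulators lie between -0.50 and 0.57 over the 4 lines.

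The genes whose 4 line differences lay nearest to those of IRF7, by Euclidean distance over the 4 lines among all 11963 genes, were PARP12 (distance 0.369), TRIM14 (0.373), BST2 (0.467), PLSCR1 (0.495) and UBE2L6 (0.596). PARP12 differed by 1.20 in CAOV-3 and 1.17 in OVCAR-3, and TRIM14 by 1.10 and 1.23, with sizes under 0.14 in SKOV-3 and DOV-13. BST2 (tetherin) differed by 0.71 and 1.29, PLSCR1 by 1.56 and 1.32, and UBE2L6, the conjugating enzyme for ISG15, by 1.20 and 0.75. The nearest to IRF1 were FOXRED2 (0.0483), AKAP10 (0.061), TJP3 (0.0724), BRPF1 (0.0845) and CRELD1 (0.0881), all between 0.11 and 0.30 in every line. The IRF1 differences lie within the bulk of all genes, where near neighbours are many, and both sets share the same 8 arrays.

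**Figure D4:**
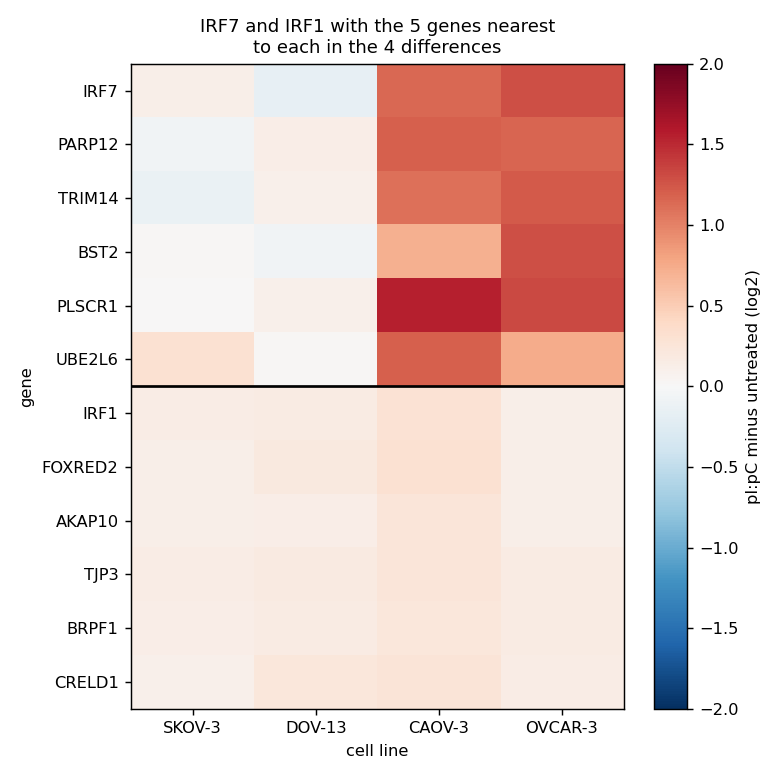
Treated minus untreated log2 difference (colour) in the 4 cell lines (columns) of IRF7 and its 5 nearest genes (upper block) and of IRF1 and its 5 nearest genes (lower block). The upper block is red in CAOV-3 and OVCAR-3 (0.71 to 1.56) and pale in SKOV-3 and DOV-13 (-0.16 to 0.30), and the lower block is pale throughout (0.11 to 0.30).

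Over the 8 array levels rather than the differences, each member was set against 5165 genes that span at least 1 on the log2 scale, and the 8 points share 4 lines, so these values are a description. For IRF7 the 3 highest Pearson correlations were with OAS1 (0.981), LCN2 (0.98) and IFITM1 (0.979), and for IRF1 with DMC1 (0.991), APOBEC3G (0.99) and ULBP2 (0.989). IRF2 was nearest to CCDC15 (0.985), FAS and NUP58 (0.983 each), and FAS, the death receptor gene, stood at 9.23 with pI:pC and 9.12 without in DOV-13 and at 5.61 with pI:pC and 5.41 without in SKOV-3. For IRF3 they were FA2H, COL16A1 and PACSIN3 (0.969 to 0.977), for IRF5 SEZ6L2, SCLY and TPST1 (0.965 to 0.973), and for IRF8 LAD1, GPNMB and PPA2 (0.986 to 0.989). IRF4 had no gene above 0.672 (TPP1).

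The IRF element was looked for in the promoter windows of the other genes as well. It was found in 5 of the 7 windows of the 5 genes nearest to IRF7, which is 4 of the 5 genes. PLSCR1 enters there with 2 overlapping windows that hold the same match. The element was also in 9 of 23 windows of the IRF3 and IRF7 targets and in 9 of 18 windows of the IRF1 targets, where 3.57% of all windows hold it. By gene that is 7 of the 19 IRF3 and IRF7 targets with a window and 9 of the 15 IRF1 targets with one. Holding it did not go with a difference in every case: of the IRF1 targets with a match, CXCL10 and TAP1 alone differed by 1 or more in any line. Of the IRF3 and IRF7 targets with a match, CXCL10, IFIT1, IFIT3, ISG15, MX1 and RSAD2 did so, and IFNA1 did not. These genes were named as IRF targets or as IRF7's nearest, so the shares describe the lists and carry no test. Matches before 6 such genes are shown in capitals, since they are the letters IRF proteins are known to read: ISG15 at chr1:1013360-1013423 and IFIT1 at chr10:89392483-89392553 on the plus strand, and CXCL10 at chr4:76023685-76023742, PARP12 at chr7:140062952-140062985, TRIM14 at chr9:98119223-98119272 and BST2 at chr19:17405721-17405784 on the minus strand. ISG15, IFIT1 and BST2 each have 2 matches, which overlap in ISG15 and BST2. A match does not show that a factor bound there.
ISG15: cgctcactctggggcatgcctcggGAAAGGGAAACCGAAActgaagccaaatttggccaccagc
IFIT1: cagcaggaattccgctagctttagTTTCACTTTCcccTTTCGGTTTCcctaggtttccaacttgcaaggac
CXCL10: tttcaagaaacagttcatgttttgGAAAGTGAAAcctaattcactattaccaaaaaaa
PARP12: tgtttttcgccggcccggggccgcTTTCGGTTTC
TRIM14: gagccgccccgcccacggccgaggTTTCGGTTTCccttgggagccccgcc
BST2: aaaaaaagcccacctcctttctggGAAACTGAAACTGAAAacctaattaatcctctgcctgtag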

How the data were processed

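Total RNA of 4 cell lines was measured on 8 Affymetrix arrays. Per the submitters' processing notes RMA was used, and the authors deposited log2 levels per probe set. For the RMA software, its version and joint or separate runs, the sources used here give nothing. All 22277 probe sets were read, and 62 array controls were left out. Symbols came from the supplied platform annotation and needed no update through the gene identifier. Probe sets were tested with limma 3.58.1 (R 4.3.3), lmFit and eBayes, as two-sided tests, Benjamini-Hochberg adjusted across the 22215 probe sets, threshold 0.05, 3 residual and 4.59 prior degrees of freedom. The cell line was a block, since it pairs the arrays: deviations from the group means correlated within lines at 0.935 to 0.965. The same fit gave the comparisons of lines. The code was tested on simulated data. For list genes and likeness, the probe set of highest mean represented a gene.

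Named were all member probe sets, per list the 4 genes with the largest mean change in size, the 5 genes nearest in difference to IRF1 and IRF7, and the 3 most correlated with each member. Other genes, such as TBK1, IKBKE, GBP1, SPI1, SPIB, KRT18, PAX8, PTPRC and CD4 were named after their values were seen. Members and lists were chosen with earlier results of these data known. P-values measure the spread between lines, since each line has 1 array per condition, and the small number of arrays limits precision. Alternatives were no block, a level filter, 1 or averaged probe sets per gene, other scalings, eBayes with trend and robust, each line left out, and other count rules.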

Additional observations from a re-analysis of the deposited data

Results flagged for a closer look

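In the 4 lines, 30 sets of values were examined (treated level, untreated level and difference of each of the 10 probe sets), and 4 had a line whose gap to its nearest neighbour took up nearly the whole range. Chance flags about 1 in 20 such sets. Untreated IRF7 was at 9.51 in CAOV-3, with a gap of 0.916 of the range. Treated IRF8 was at 6.35 in OVCAR-3 (0.876). The IRF3 difference of 0.19 in CAOV-3 stood apart from -0.03 to -0.07 in the other lines (0.856). Probe set 216986_s_at of IRF4 was at 5.68 in treated SKOV-3 (0.905), and the other IRF4 probe sets showed no such gap there.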

How the results depend on the processing

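No probe set or gene passed the treatment test under any alternative run (smallest adjusted p = 0.225, without SKOV-3). Without the cell line as a block 0 passed as well, so the pairing changed no treatment call. The mean changes of IRF1, IRF2 and IRF7 kept their sign under all 11 alternatives. Only leaving out a line or another scaling could move them, since each gene has 1 probe set and the design is balanced. Their ranges were 0.146 to 0.202, 0.066 to 0.239 and 0.373 to 0.856 when a line was left out. Leaving out a line turned the sign of the others, which ranged from -0.041 to 0.044 for IRF3, -0.157 to 0.030, -0.046 to 0.125 and -0.098 to 0.010 for IRF4 (204562_at, 216986_s_at and 216987_at), -0.054 to 0.209 and -0.126 to 0.065 for IRF5 (205469_s_at and 205468_s_at) and -0.073 to 0.065 for IRF8. IRF7 remained the single member counted in CAOV-3 and OVCAR-3 under a 1.5-fold limit, no level requirement and other scalings. Member probe sets called between lines numbered 3 to 6 when a line was left out (5 with all), and pairs of lines called 8 (without CAOV-3), 9 (without OVCAR-3), 11 (without DOV-13) and 12 (without SKOV-3) of 30, against 18 of 60 with all, since fewer pairs exist. IRF3 passed the F test without treatment in the model (adjusted p = 0.0441), with the level filter (0.0487) and without SKOV-3 (0.0475). The median of the IRF3 and IRF7 targets was 1.264 with the level filter, which left 6 genes, against 0.113. The level filter used the mean over all 8 arrays, the treated ones included, so a gene raised by pI:pC passes it more readily. The higher median is thus partly built in. That filter gave 0.051 for the sensing and kinase genes (0.17 with all), 0.087 for the receptor and JAK-STAT genes (0.027) and 0.279 for the IRF1 targets (0.178 with all). IRF4 and 205468_s_at of IRF5 are too dim for a small difference to be read.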
